A study of Oryza sativa Japonica Group with 12 samples.

Results

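*OsARF5* (LOC4328265), *OsARF24* (LOC4352211) and *ARF13* (LOC9269399) are rice genes for auxin response factors (ARFs), and each had 1 probe set on the array. They were selected on the measured log2 signal of these same arrays, because it was lower in crown root (CR) primordia than in stem cortex, and they are 3 of the 24160 genes to which a probe set could be assigned. The difference between primordia and cortex is therefore described for them and not tested. The article's own tables do not give the probe set of *OsARF5* a single locus ID, so which gene it measures rests on the array annotation used here. A further 20 genes of the reference gene table carry an ARF number as symbol or synonym, 16 of them with a probe set, and these served as background.

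The samples came from *Oryza sativa* ssp. *japonica* cv. Taichung 65 seedlings, for which the labels give no transgene or hormone treatment, and which had grown for 8 days from sowing. CR primordia of an early, an intermediate and a late stage were cut out of sections of the stem base by laser microdissection, and stem cortex was cut out of the same sections. Each of the 4 groups holds 3 arrays, and 6 stem bases were used in all. The arrays with one replicate number were taken to stand for the pooled tissue of 1 pair of stem bases. The values are log2 signals of 1 probe set per gene, already normalized by the authors, and a difference of 1 is a doubling. Because an array measures pooled RNA, fewer cells of a type and less RNA per cell cannot be told apart.

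Auxin response factors bind auxin response elements in promoters and switch auxin-responsive genes on or off. At low auxin, Aux/IAA proteins bind many of the ARFs and bring in corepressors of the TOPLESS type, and auxin lifts this block by sending the Aux/IAA proteins to degradation through the TIR1/AFB receptors. In rice, auxin signalling of this kind is required for crown roots to be initiated from the stem base, where an ARF acts on the LBD gene *CRL1*. The family numbers of rice and Arabidopsis were given independently, so *OsARF5* is not shown by its number to be the counterpart of Arabidopsis *ARF5* (*MONOPTEROS*). *OsARF24* is known in rice as a partner of OsARF23 on the promoter of the formin gene *RMD*. No role of *ARF13* is given here.

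The arrays were not alike in their bright range. The 98th percentile of the log2 signal was 7.48 and 7.54 on cortex replicates 2 and 3, 8.46 on cortex replicate 1 and between 8.66 and 9.06 on the primordium arrays. The array medians lay between 2.82 and 2.97. The markers fitted the labels in part. All 6 green cortex markers, chlorophyll a/b binding and Rubisco small subunit genes, had lower means in each stage than in cortex, with a mean log2 signal of 3.68 to 4.68 on the cortex arrays and 2.32 to 2.57 on the primordium arrays, and 3, 4 and 3 of them fell in early, intermediate and late primordia (adjusted p under 0.05 in limma and at least 1.5-fold). The 6 markers of dividing cells had a mean of 2.88 to 2.99 on the cortex arrays, 3.48 to 3.66 on the early, 3.42 to 3.86 on the intermediate and 2.97 to 3.59 on the late ones. The 4 primordium and root meristem markers found by name were *OsSCR1*, *OsSHR1*, *QHB* and *OsWOX5*. Their mean stood at 3.41 to 3.86 in cortex and at 4.21 to 4.57 in the early stage. In the intermediate and late stage it was 3.38 to 4.07 and 3.38 to 3.77, within or near the cortex range. They did not go alike, as *OsSCR1* and *OsSHR1* had higher means than cortex in each stage and *OsWOX5* lower ones. The *PLT* genes, most of which the article reports as higher in primordia, were not found by name. The 3 xylem markers were at 2.72 to 3.31 on the cortex arrays and at 2.59 to 2.77 on the primordium arrays, and the 3 phloem markers at 2.78 to 2.98 and 2.77 to 3.01. What part the makeup of the tissue has in the values of the ARF genes was not tested.

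*OsARF5* showed the widest gap between tissues of the 3 genes. Its log2 signal was 4.66, 3.86 and 4.02 on cortex replicates 1, 2 and 3. The early primordia gave 2.64, 3.68 and 3.01, the intermediate ones 2.61, 2.47 and 3.05 and the late ones 2.80, 2.27 and 2.33. Every primordium array lay below every cortex array, although early replicate 2 came within 0.19 of its own cortex array. Cortex had a mean of 4.18 ± 0.42, and the means of the early, intermediate and late stage were 3.11 ± 0.52, 2.71 ± 0.30 and 2.47 ± 0.29 (SD, n = 3). The differences from cortex were -1.07, -1.47 and -1.71 on the log2 scale with a standard error of 0.29, or 2.10-fold, 2.77-fold and 3.28-fold lower.

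Within the pairs of stem bases, *OsARF5* was lower in the primordia in all 9 comparisons with the cortex array of the same number. The early stage differed most in pair 1, by -2.01, and least in pair 2, by -0.19. The late stage differed by -1.86, -1.59 and -1.69, a narrower spread. The early value thus depended on which pair was counted, with -0.59 when replicate 1 was left out in all groups and -1.51 when replicate 2 was. Cortex replicate 1 was the highest of the cortex arrays for *OsARF5* and is also the cortex array whose bright range was closest to that of the primordia. Against that array alone the differences were -1.55, -1.95 and -2.19. They had to lie further from 0 than those against the 3 cortex arrays, because this array was the highest. Nothing is therefore read from their size, and the part of the bright range in the gap was not tested.

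*OsARF24*, the partner of OsARF23 at *RMD*, differed from cortex mainly in the 2 later stages. Its log2 signal was 3.17, 3.30 and 3.30 in cortex, values that lay close together. Early primordia had 3.02, 3.22 and 2.99, intermediate primordia 2.57, 2.73 and 2.88 and late primordia 2.65, 2.35 and 2.69. Early replicate 2 lay above cortex replicate 1, so the early and cortex arrays overlapped, whereas all intermediate and late arrays lay below all cortex arrays. The mean was 3.26 ± 0.08 in cortex, against 3.08 ± 0.12, 2.73 ± 0.15 and 2.56 ± 0.19 in the 3 stages (SD, n = 3). This gave differences from cortex of -0.18, -0.53 and -0.69 with a standard error of 0.13, or 1.13-fold, 1.44-fold and 1.62-fold lower. Against cortex replicate 1 alone they were -0.09, -0.44 and -0.61.

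*ARF13* had its low signal already in the early stage. The log2 signal was 3.29, 2.96 and 3.15 in cortex. The early arrays read 2.62, 2.50 and 2.49, those of the intermediate stage 2.57, 2.28 and 2.53 and the late ones 2.20, 2.27 and 2.36. No primordium array reached the lowest cortex array. The means were 3.13 ± 0.16, 2.54 ± 0.07, 2.46 ± 0.16 and 2.28 ± 0.08 in cortex, early, intermediate and late tissue (SD, n = 3). The differences from cortex were -0.60, -0.67 and -0.86 with a standard error of 0.12, or 1.51-fold, 1.59-fold and 1.81-fold lower, and -0.75, -0.83 and -1.01 against cortex replicate 1 alone.

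**Figure D1:**
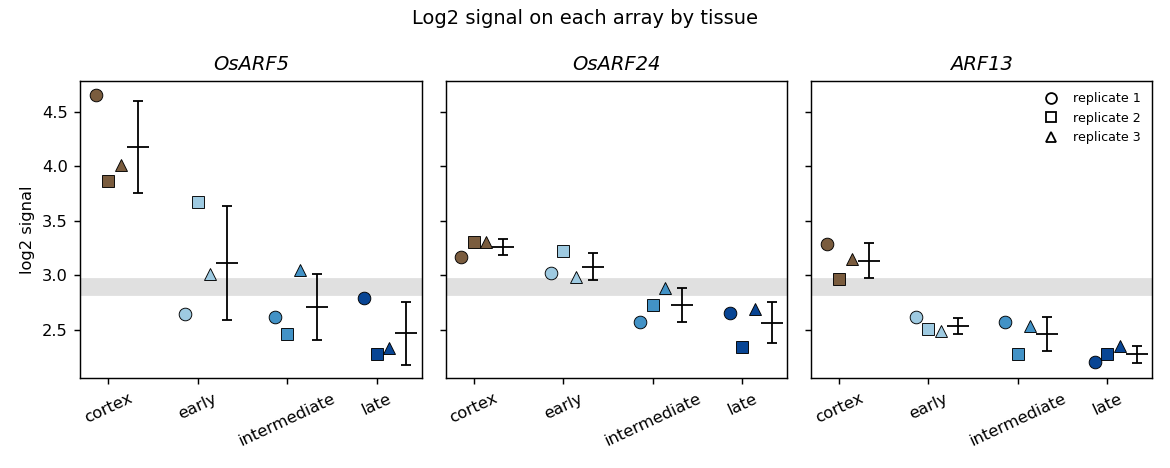
Log2 signal (vertical axis) of *OsARF5*, *OsARF24* and *ARF13* on each of the 12 arrays, by tissue (horizontal axis). Symbols give the replicate, the bars the group mean and SD over 3 arrays, and the grey band the range of the 12 array medians, 2.82 to 2.97. *OsARF5* and *ARF13* had every primordium array below every cortex array, while early and cortex arrays of *OsARF24* overlapped.

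So 2, 3 and 3 of the 3 genes had all arrays of the early, intermediate and late stage below all cortex arrays. Of all probe sets with a gene, 11.6%, 15.4% and 14.2% did so. The 3 genes were picked for this contrast, and nothing is read from their count. The 3 comparisons with cortex also share the same 3 cortex arrays.

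The signals of the 3 genes were low on these arrays. *OsARF5* and *OsARF24* exceeded the array's median over all probe sets on 3 of 3 cortex arrays and *ARF13* on 2 of 3. On the 9 primordium arrays *OsARF5* did so on 3, *OsARF24* on 4 and *ARF13* on 0. No background or detection call was at hand for any probe set, and near the lower end of the scale a difference in signal can understate the difference in transcript. Their scatter differed too. The residual SD within groups was 0.40 for *OsARF5*, larger than that of 89.7% of the genes, but 0.14 for *OsARF24* and 0.12 for *ARF13*, larger than that of only 21.1% and 13.4% (median of all genes 0.21).

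The 3 genes were chosen from values of the same primordium arrays, *OsARF24* in the article for the late stage alone, so their differences among the 3 stages are likewise described and not tested. In all 9 comparisons the later stage had the lower mean. These are not 9 separate outcomes, because late against early is the sum of the other differences of a gene, and nothing is read from the count. Of all genes, 50.6%, 50.5% and 49.4% had the lower mean in late against early, intermediate against early and late against intermediate. For *OsARF24* the difference between late and early was -0.51 on the log2 scale with a standard error of 0.13. Each late array of *OsARF24* lay below each early array, and the differences within the pairs were -0.37, -0.87 and -0.30. The intermediate stage of *OsARF24* was also below the early one on every array, as for 5.84% of all genes, with a difference of -0.35.

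*ARF13* was lower on every late array than on any early one, with a difference of -0.26 and a standard error of 0.12. The pairs gave -0.42, -0.23 and -0.13 for *ARF13*. *OsARF5* had the larger late difference, -0.64, but also the larger standard error, 0.29. Its early and late arrays overlapped, and the pairs differed by 0.15, -1.40 and -0.68, so pair 1 ran the other way. Of all genes, 7.5% had every late array below every early array, as 2 of the 3 genes did, and nothing is read from this count either. From intermediate to late the differences were -0.24 for *OsARF5*, -0.16 for *OsARF24* and -0.18 for *ARF13*, with overlapping arrays for each. The order of the means was thus cortex, early, intermediate and late for each gene, and late and intermediate arrays overlapped for all 3.

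**Figure D2:**
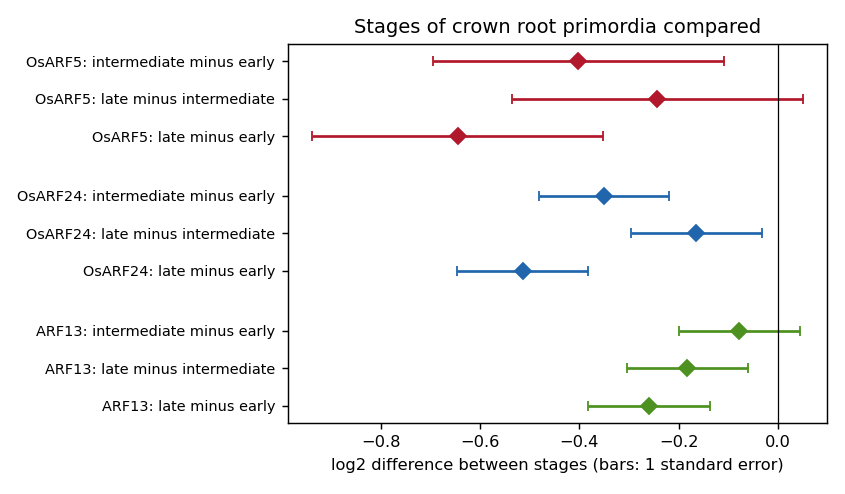
Log2 difference between stages of CR primordia (horizontal axis) for *OsARF5*, *OsARF24* and *ARF13*, with bars of 1 standard error from the fit over 12 arrays. All 9 differences lie below 0, from -0.08 for *ARF13* between intermediate and early to -0.64 for *OsARF5* between late and early. They are not separate outcomes, because late against early is the sum of the other differences of a gene.

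Among the 16 other ARF genes with a probe set, 0 rose and 0 fell in any stage in limma, where rising or falling means an adjusted p under 0.05 and at least a 1.5-fold difference. Over all genes tested 1.7%, 3.21% and 1.61% rose and 0.952%, 2.51% and 1.64% fell in the early, intermediate and late stage. At the thresholds of the study's methods, an unadjusted p under 0.01 with the same fold, the count of the 16 was also 0, against 2.38%, 4.11% and 3.4% of all genes on the lower and 4.64%, 5.68% and 4.42% on the higher side. At an unadjusted p under 0.05 without a fold limit it was 1 gene in each stage, each time LOC4327785 and each time lower, while 21.1%, 28.3% and 24.5% of all genes had such a p. The median difference of the 16 genes from cortex was -0.01, 0.01 and 0.04, beside -0.03, -0.03 and -0.02 over all genes. Of the 16, 9, 7 and 7 had a difference below 0, where 54.9%, 53.6% and 52.8% of all genes did.

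LOC4327785, for which the gene table gives the names *ARF1* and *ARF16*, was the other ARF gene most like the 3 in its gap to cortex. Its log2 signal was 3.57, 3.99 and 3.50 on the cortex arrays. The early arrays ranged from 3.00 to 3.30, the intermediate ones from 2.92 to 3.30 and the late ones from 3.15 to 3.32, all below cortex. The differences were -0.50, -0.54 and -0.47 with a standard error of 0.16 (limma adjusted p = 0.113, 0.0654 and 0.118). Without cortex replicate 1 the intermediate difference was -0.60 and passed (limma adjusted p = 0.0478), which was the only call of an ARF gene outside the 3 under any setting run. From early to late it did not go down further, with stage means of 3.19, 3.15 and 3.22.

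*ARF23* (LOC4350610), known in rice as the partner of OsARF24, did not share its direction. Its log2 signal was 2.81, 2.91 and 2.82 in cortex and 2.94, 3.20 and 2.95 in the early stage, so that every early array lay above every cortex array. The differences from cortex were 0.18, 0.09 and 0.08 with a standard error of 0.12 (limma adjusted p = 0.421, 0.662 and 0.722). *RMD* (LOC4343793, listed as *FH5*), the formin gene on which both factors are reported to act, had a log2 mean of 4.47 ± 0.36 in cortex, and of 4.80 ± 0.47, 4.77 ± 0.03 and 4.84 ± 0.27 in the 3 stages (SD, n = 3). Its differences of 0.33, 0.30 and 0.37, with a standard error of 0.25, did not pass (limma adjusted p = 0.476, 0.433 and 0.379). The means of *RMD* were thus above cortex in each stage in which the mean of *OsARF24* was below it, and its arrays overlapped with cortex in every stage.

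*ARF22* (LOC4348918) was lower on every early array, at 2.23 to 2.31 against 2.56 to 2.65 in cortex, a difference of -0.34 (limma adjusted p = 0.369), but not in the intermediate and late stage, where the differences were -0.09 and 0.06. *ARF17* (LOC4341841) was higher on every intermediate array, at 3.73 to 3.99 against 3.52 to 3.63, a difference of 0.23 (limma adjusted p = 0.262). The widest difference above 0 was that of *ARF8* (LOC4330045), at 0.39, 0.74 and 0.30 with a standard error of 0.39 (limma adjusted p = 0.598, 0.232 and 0.663), and its cortex arrays ranged from 2.63 to 3.98. In all, 2, 1 and 1 of the 16 lay below cortex on every array of the early, intermediate and late stage, and 1, 1 and 0 lay above it on every array, as 12.4%, 16.1% and 13.2% of all genes did. Between stages 0 of the 16 rose or fell in limma, as did 0% of all genes, and 0 had an unadjusted p under 0.05, where 6.2%, 3.14% and 2.48% of all genes did in late against early, intermediate against early and late against intermediate. *ARF6* (LOC4328406), *ARF19* (LOC4341978), *ARF21* (LOC4346065) and *ARF25* (LOC4352783) had no probe set assigned and were not analysed here.

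**Figure D3:**
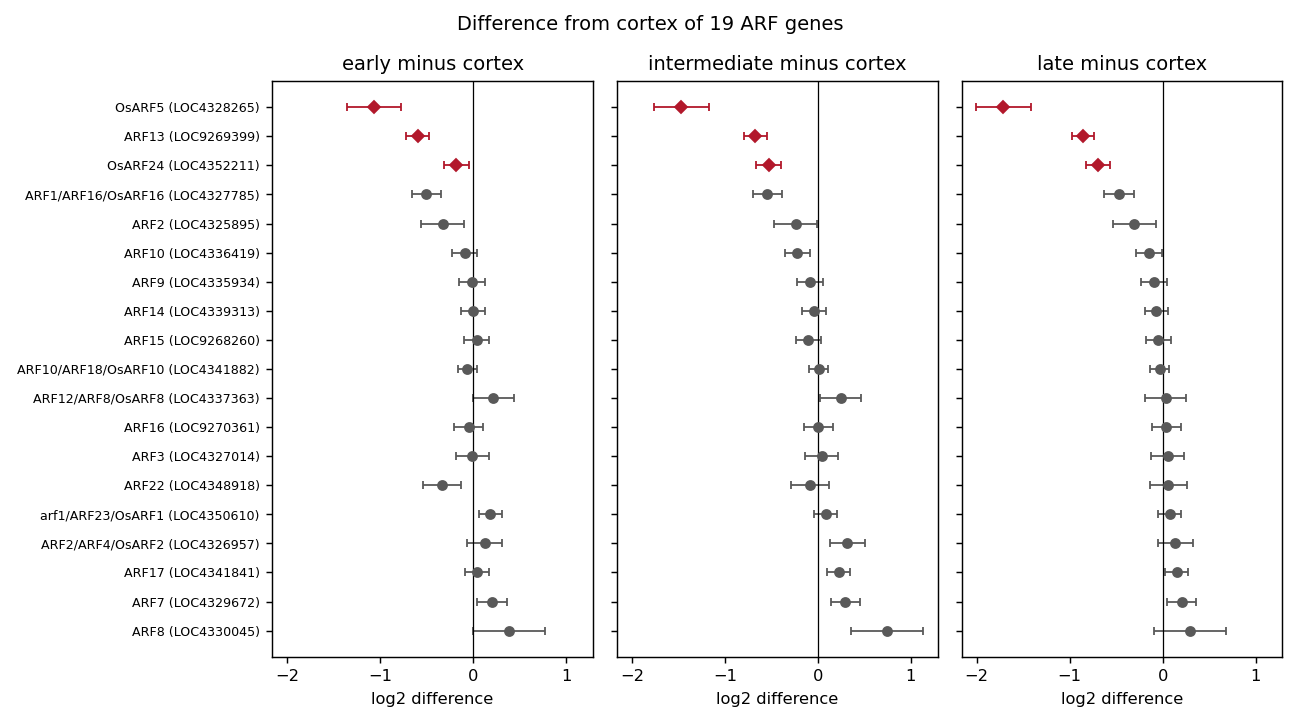
Log2 difference from cortex (horizontal axis) of 19 ARF genes in early, intermediate and late CR primordia, ordered by the late difference. Diamonds are *OsARF5*, *ARF13* and *OsARF24*, circles the 16 other genes, and bars 1 standard error of the difference. The 3 chosen genes have the lowest late values, and most of the others lie within 0.3 of 0. The 3 were picked for being lower than cortex on these arrays, so nothing is read from their rank. In the early and intermediate stage LOC4327785 lies below *OsARF24*.

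Over the 12 arrays the 3 genes varied alike, with Pearson r of 0.83 between *OsARF5* and *OsARF24*, 0.88 between *OsARF5* and *ARF13* and 0.76 between *OsARF24* and *ARF13*. These points share the 4 groups, the gap to cortex by which the genes were chosen and the array effects. Over the 9 primordium arrays alone the values were 0.81, 0.41 and 0.58. Other ARF genes came as close over those 9 arrays. *ARF23* had an r of 0.78 with *OsARF5* and 0.645 with *OsARF24*, and *ARF9* (LOC4335934) had 0.72 and 0.68, whereas over the 12 arrays these were -0.04 and 0.15 for *ARF23* and 0.28 and 0.44 for *ARF9*.

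The gene most like *OsARF5* over the 12 arrays was *OsSWEET4* (LOC4329093), which encodes a sugar transporter, with an r of 0.96 and 0.91 over the 9 primordium arrays. Its log2 mean was 4.30 ± 0.33 in cortex, and 3.79 ± 0.40, 3.50 ± 0.32 and 3.47 ± 0.12 in the 3 stages (SD, n = 3). LOC4349234 and LOC4327831 followed, each with an r of 0.93, and among genes with a name *OsSWEET14* (LOC4350572), another sugar transporter gene, with 0.92 and *AP25* (LOC4331874) with 0.92. *OsSWEET14* had means of 3.08, 2.74, 2.44 and 2.29 in cortex, early, intermediate and late tissue, the same order as *OsARF5*. Over the 9 primordium arrays *AP25* had an r of 0.63. The ranks depended on the processing. After quantile normalization again *OsCKX3* (LOC4348932) and the green cortex marker *RCABP69* (LOC4343583) followed *OsSWEET4* among named genes, with 0.92 and 0.91. For *OsARF24* and *ARF13* the closest named genes changed in part as well.

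For *OsARF24* the closest genes were LOC4324321 with an r of 0.97, LOC4341049 with 0.92 and LOC9267060 with 0.91. LOC4324321 kept an r of 0.95 over the 9 primordium arrays, with means of 2.92, 2.80, 2.59 and 2.48 from cortex to late. The closest named genes were *CML10* (LOC4325762), a calmodulin-like gene, *GRXC1* (LOC4325734), a glutaredoxin gene, and the auxin-conjugating enzyme gene *OsGH3-4* (LOC4339234), each with an r of 0.86. *CML10* went from 7.34 ± 0.71 in cortex and 6.98 ± 0.24 in early to 6.13 ± 0.26 in intermediate and 4.82 ± 0.21 in late primordia (SD, n = 3), so here too the early stage was near cortex.

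*ARF13* was most like LOC4350639, LOC4346326 and LOC4329252, with r of 0.97, 0.96 and 0.96. The closest named genes were *RCABP69* (LOC4343583) and *RCABP89* (LOC4333359), with r of 0.93 and 0.91. Both are chlorophyll a/b binding protein genes and belong to the 6 green cortex markers above. The third was the cytokinin oxidase gene *OsCKX3* (LOC4348932) with 0.91. *RCABP69* had log2 means of 4.40 ± 0.47 in cortex and 2.99 ± 0.14, 2.73 ± 0.06 and 2.73 ± 0.01 in the 3 stages (SD, n = 3). Over the 9 primordium arrays its r with *ARF13* was 0.47.

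In the reference gene table *OsARF5* lies on chromosome 2, *OsARF24* on chromosome 12 and *ARF13* on chromosome 4, and the build behind the array is not given in the sources used here, so no coordinates are printed. *OsARF5* is overlapped by 1 gene in that table, and which gene this is was not recorded. LOC4328264 and LOC4328266 stand directly beside *OsARF5* in gene order, so the overlapping gene may be 1 of them. Whether the probes of *OsARF5* fall in the shared stretch is not known, and its values are uncertain to that extent. LOC4328264, the gene before *OsARF5*, differed from cortex by 0.22, 0.21 and -0.03, with overlapping arrays. LOC4328266, the next gene on the other side, was lower on every primordium array, by -0.25, -0.28 and -0.29. No gene overlaps *OsARF24* or *ARF13*. The nearest measured genes beside *OsARF24* differed from cortex by -0.02, -0.20 and -0.32 (LOC4352209) and by -0.19, 0.08 and 0.16 (LOC4352213), and those beside *ARF13* by -0.19, -0.25 and -0.40 (LOC4337497) and by -0.27, -0.44 and -0.30 (LOC4337500).

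The other genes of the auxin pathway, 50 with a probe set, were mostly not called against cortex. Of these 50, 0, 2 and 0 rose and 1, 2 and 1 fell in the early, intermediate and late stage in limma, beside the shares of all genes given for the ARF family. Their median difference was -0.10, -0.12 and -0.11, beside -0.03, -0.03 and -0.02 over all genes. A difference below 0 was found for 30, 34 and 35 of them, and for 54.9%, 53.6% and 52.8% of all genes. At an unadjusted p under 0.05 in limma, 7, 4 and 3 were higher and 11, 9 and 8 lower. Of all genes, 21.1%, 28.3% and 24.5% had such a p in either direction.

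Among the 28 Aux/IAA genes, whose proteins hold ARFs in check, *IAA4* (LOC4327919, also listed as *IAA20*) fell in the early and intermediate stage. Its log2 mean was 3.13 ± 0.18 in cortex, against 2.54 ± 0.04, 2.49 ± 0.06 and 2.57 ± 0.14 in the 3 stages (SD, n = 3). The differences of *IAA4* were -0.59, -0.64 and -0.56 with a standard error of 0.12 (limma adjusted p = 0.0331, 0.0222 and 0.0393), and the late one stayed under 1.5-fold. *IAA5* (LOC4325515, also listed as *IAA8*) rose in the intermediate stage. Its cortex arrays ranged from 4.38 to 5.54 and its intermediate arrays from 5.58 to 5.99, a difference of 1.00 with a standard error of 0.26 (limma adjusted p = 0.0498). With the pair of stem bases as a block the adjusted p of *IAA5* was no longer under 0.05 and the call was lost, and against cortex replicate 1 alone its difference was 0.25. Early and late *IAA5* differed from cortex by 1.08 and 0.97 (limma adjusted p = 0.0571 and 0.0691). *IAA31* (LOC4352722) was not called, but all its primordium arrays lay above all cortex arrays. Its means were 4.51, 4.93, 4.87 and 5.09 in cortex, early, intermediate and late tissue. After median centring it rose in the late stage (limma adjusted p = 0.0321). Of the 28 genes, 7, 6 and 3 lay above cortex on every array, where 12.4%, 16.1% and 13.2% of all genes did. Below it on every array lay 5, 3 and 6, where 11.6%, 15.4% and 14.2% of all genes did.

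Of the 3 TOPLESS-type corepressor genes, *OsTPR1* (LOC4332285, also listed as *TPR3*) rose in the intermediate stage, by 0.59 with a standard error of 0.13 (limma adjusted p = 0.0320). Its early and late differences, 0.41 and 0.46, did not pass (adjusted p = 0.111 and 0.0747). *OsTPR2* (LOC4327709), of the same list, lay below cortex on every early array, with a difference of -0.51 (limma adjusted p = 0.0733), and at -0.18 and -0.08 in the intermediate and late stage. Of the 9 GH3 genes, whose enzymes attach amino acids to auxin, *OsGH3-4* (LOC4339234) fell in the intermediate and late stage. Cortex had a log2 mean of 4.55 ± 0.16 for this gene, and the 3 stages had 4.21 ± 0.18, 3.91 ± 0.02 and 3.87 ± 0.22 (SD, n = 3). The differences of *OsGH3-4* were -0.34, -0.64 and -0.68 with a standard error of 0.14 (limma adjusted p = 0.212, 0.0328 and 0.0380), and the late call was lost with the pair as a block (adjusted p = 0.0538).

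None of the 6 PIN efflux carrier genes, the 2 auxin biosynthesis genes and the 1 LBD gene found by name, *LBD6* (LOC4324906), passed both limits. The closest was *OsPIN5a* (LOC4324368), with -0.55 in the intermediate stage (limma adjusted p = 0.0467), under 1.5-fold. The 6 calls of the pathway genes were all lost when only the 6 arrays of a comparison were fitted (limma adjusted p = 0.123 to 0.183) and when replicate 2 was left out, but so were nearly all calls on the array. The fit of 6 arrays left 2, 1 and 0 genes that rose and 0, 1 and 1 that fell among 24161, and the fit without replicate 2 left 0. Without cortex replicate 1, 1, 2 and 1 of the 50 genes rose and 2, 4 and 5 fell, when 1332, 1902 and 1547 of all 24161 rose and 1004, 1731 and 1424 fell. The TIR1/AFB receptor, AUX1, *CRL1* and *CRL5* genes were not found by name in the gene table and were not analysed here. The same holds for *OsLBD3-6*, which the article reports as lower in primordia than in cortex in each stage. The LBD list thus stands for *LBD6* alone and not for the LBD family.

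**Figure D4:**
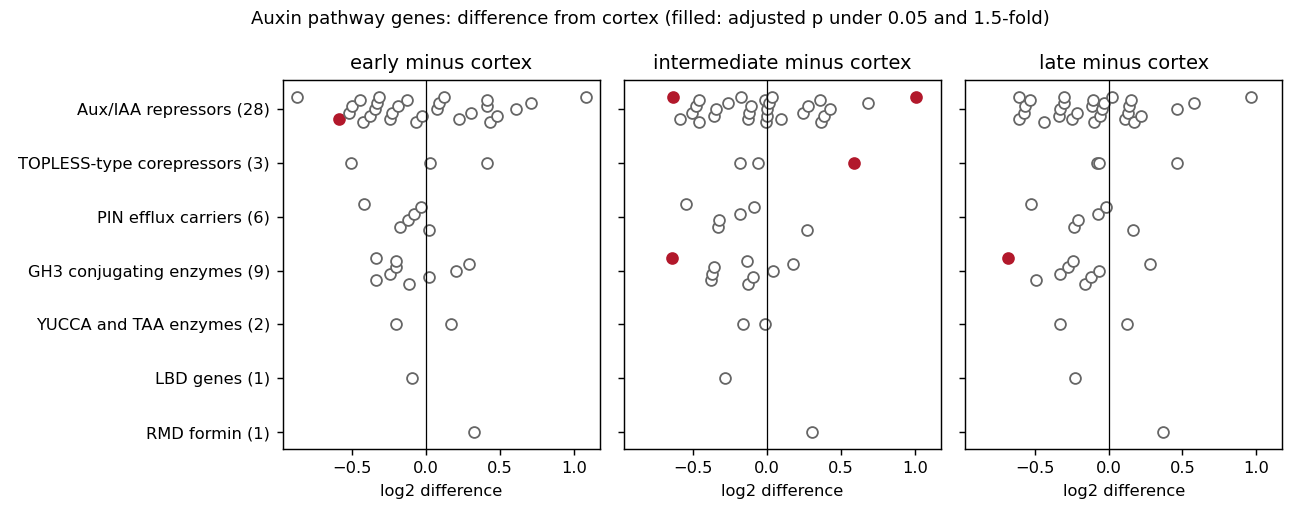
Log2 difference from cortex (horizontal axis) of 50 genes of the auxin pathway by list, in early, intermediate and late CR primordia. Each circle is a gene, and filled circles passed an adjusted p under 0.05 with at least a 1.5-fold difference in limma. Of the 50 genes 1, 4 and 1 are filled, among them *IAA4*, *IAA5*, *OsTPR1* and *OsGH3-4*.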

How the data were processed

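RNA of 12 samples, 3 for each of 4 tissues, was measured on Affymetrix Gene Rice (Jp) arrays. The authors deposited 1 normalized log2 signal per probe set and array. The article names RMA in the Transcriptome Analysis Console, whereas the submitters' processing notes name GCRMA and Affymetrix Expression Console, so the summary method is not settled. Scans, detection calls and sequences were not used here. Of the 36643 probe sets, 24161 had 1 gene in the array annotation, and names came from the RefSeq gene table. Gene lists were picked by name alone. A group means model of all 12 arrays was fitted to all probe sets with limma 3.58.1 in R 4.3.3 with eBayes, and Benjamini-Hochberg adjustment was made over the 24161 probe sets. The fit was tested on simulated data. Members and lists were chosen with earlier results of these data known. Planned tests between stages of the 3 genes are not given, since their choice rested on the same arrays.

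Named are the 3 genes, ARF genes whose arrays did not overlap with cortex, the 3 most alike genes with or without a name, and of each pathway list up to 3 genes of lowest p. *ARF8* and the chromosomal neighbours were added after their values were seen. The extraction notes state that each repetition pooled 2 stem bases, for which reason equal numbers were taken as pairs. Over genes, the deviations of same-numbered arrays from their group means had a mean correlation of 0.0510 (18 pairs of arrays, 7 above 0.1). Those of different number had -0.0258 (36 pairs, 8 above 0.1). The ranges overlapped widely, at -0.31 to 0.35 and -0.38 to 0.26, so the pairing rests on the notes and not on these values. Alternatives were the replicate block, the 6 arrays compared, quantile normalization again, median centring, a filter on dim probe sets, an intensity trend, array weights, cortex replicate 1 alone and leaving out arrays. The number of arrays limits the precision.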

Additional observations from a re-analysis of the deposited data

How the results depend on the processing

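The 3 genes kept a lower mean than cortex in every stage under quantile normalization again, median centring, cortex replicate 1 alone and each left-out array. For *OsARF5* and *ARF13* the left-out arrays and cortex replicate 1 alone could not turn the sign, because no primordium array reached a cortex array. The same holds for *OsARF24* in the intermediate and late stage. The genes were picked for this contrast, so nothing is read from the kept direction. Values for cortex replicate 1 alone that moved by more than 1 SD were -1.55, -1.95 and -2.19 for *OsARF5* and -0.75, -0.83 and -1.01 for *ARF13* in the early, intermediate and late stage. Leaving out arrays moved the early *OsARF5* difference between -1.51 and -0.59, the intermediate one between -1.72 and -1.18 and the late one between -1.88 and -1.47. Between stages, the intermediate and early means of *OsARF5* turned to 0.00214 without replicate 2 (leaving out arrays gave -0.64 to 0.00214), and those of *ARF13* to 0.0126 without intermediate replicate 2 (-0.14 to 0.0126). The late means stayed below the early ones in all alternatives, of which there were 22, 22 and 21 for *OsARF5*, *OsARF24* and *ARF13*. Nothing is read from these counts, because many alternatives could not move these means. The replicate block, fitting only the arrays compared, dropping dim probe sets and the intensity trend left them unchanged. So did cortex replicate 1 alone and leaving out cortex or intermediate arrays. For *OsARF24* and *ARF13* no late array reached an early one, so left-out arrays could not turn the sign. For *OsARF5*, whose early and late arrays overlapped, left-out arrays gave -1.04 to -0.27. *ARF13* has no value under the filter on dim probe sets.

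The pair of stem bases as a replicate block changed no call of the 16 other ARF genes. It left 1 auxin pathway gene that rose in the intermediate and 0 that fell in the late stage. Of the other ARF genes, 1 fell in the intermediate stage without cortex replicate 1, and 0 to 1 over all left-out arrays. The number of auxin pathway genes that rose was 1 in the early stage without dim probe sets and with array weights, 1 in the late stage after median centring and with array weights, and in the intermediate stage 3 after median centring (*IAA5*, *IAA7* and *OsTPR1*), 1 with array weights and 0 with the 6 arrays compared, quantile normalization, an intensity trend and cortex replicate 1 alone. The number that fell in the early stage was 0 with the 6 arrays compared, quantile normalization, median centring, no dim probe sets, array weights and cortex replicate 1 alone. In the intermediate stage it was 0 with the 6 arrays compared, median centring and cortex replicate 1 alone, 1 with quantile normalization, no dim probe sets and an intensity trend, and 4 with array weights. In the late stage it was 2 with quantile normalization and 0 with the 6 arrays compared, median centring, an intensity trend, array weights and cortex replicate 1 alone. Leaving out arrays gave 0 to 1, 0 to 2 and 0 to 1 that rose and 0 to 2, 0 to 4 and 0 to 5 that fell in the early, intermediate and late stage. The calls over all genes moved as well. With array weights 872, 1018 and 660 rose and 466, 780 and 520 fell, after median centring 468, 1035 and 422 rose and 196, 508 and 328 fell, and against cortex replicate 1 alone 21, 11 and 6 rose and 96, 104 and 107 fell. Quantile normalization again changed the split of all calls from 411 higher and 230 lower to 237 and 253 for early, from 776 and 606 to 293 and 492 for intermediate and from 388 and 397 to 157 and 324 for late primordia. The causes were not tested. Signals near the array medians, with no background measure, limit what can be said of *ARF13* in primordia.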
